A study of Mus musculus with 3 samples.

Results

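The miR-17 seed family is the group of mouse miRNAs whose 5p arms share bases 2 to 8 with miR-17-5p. Its probes were chosen by name, as every probe for miR-17, miR-20a, miR-20b, miR-93, miR-106a or miR-106b. This gave 12 of the 1265 mouse miRNA probes of the array, 6 for 5p arms and 6 for 3p arms. The 5p arms are the guide strands that are loaded into Argonaute, and the 3p arms are their passenger strands.

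The family was measured in 3 cultures of the C2C12 line, a line of mouse myoblasts that fuses into myotubes when serum is lowered. W4-08-PR cells are a C2C12 subline (W408 in the sample descriptions) grown in DMEM with 10% FBS, the proliferation medium. They carry a stably selected vector in which a CMV promoter drives V5-tagged Wnt4 and a PGK promoter drives blasticidin resistance, and they form myotubes in that medium. C2C12-DF cells are the parental line in DMEM with 2% horse serum, the differentiation medium, and C2C12-PR cells are the parental line in the 10% FBS medium. No vector is described for the parental cultures, so Wnt4, the selection and the subline itself cannot be told apart in W4-08-PR. Whether W4-08 is 1 clone, and how long each culture had been in its medium at extraction, are not given in the sources used here. Each culture was read once, on 1 single-colour 3D-Gene array, and the conditions could not be tested against each other because none was replicated.

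The family is made from 3 paralogous gene clusters. The miR-17 cluster is a target of Myc and E2F factors and is known for promoting cell division, in part by holding down the cell cycle inhibitor p21. A seed decides most of what a miRNA can pair with, so miRNAs that share one are expected to share many mRNA targets. Dividing myoblasts leave the cell cycle when they differentiate, which is the setting of the comparison between the 2 media.

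The mature guide strands are shown because their likeness bears on every value below. On the array they are named mmu-miR-17-5p, mmu-miR-20a-5p, mmu-miR-106a-5p, mmu-miR-20b-5p, mmu-miR-93-5p and mmu-miR-106b-5p, and the species prefix is left out from here on. Sequences were taken from RefSeq (build GRCm38.p6), in which all 12 probes of the family found their miRNA by name. They run from 5′ to 3′ with the seed, bases 2 to 8, in capitals.
miR-17-5p: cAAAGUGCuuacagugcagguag
miR-20a-5p: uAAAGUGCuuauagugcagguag
miR-106a-5p: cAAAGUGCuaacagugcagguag
miR-20b-5p: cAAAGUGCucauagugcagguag
miR-93-5p: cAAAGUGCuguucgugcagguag
miR-106b-5p: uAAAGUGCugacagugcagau
Counted from 1 at the 5′ end, and with the base of miR-17-5p first, miR-106a-5p differs from miR-17-5p only by U10A. miR-20a-5p differs from it by C1U and C12U, and miR-20b-5p by U10C and C12U. miR-93-5p differs by U10G, A11U, C12U and A13C. miR-106b-5p differs by C1U, U10G and G20A over the 21 bases that it has. Any pair among miR-106a-5p, miR-20b-5p, miR-17-5p and miR-20a-5p differs at 1 to 3 bases, and any pair with miR-93-5p or miR-106b-5p at 3 to 5 bases. How far each probe also binds its near-identical relatives was not tested, so the 6 values are not independent measurements.

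The hairpin of Mir17 shows both arms of a member, in capitals, with the guide strand first and the passenger strand second.
Mir17: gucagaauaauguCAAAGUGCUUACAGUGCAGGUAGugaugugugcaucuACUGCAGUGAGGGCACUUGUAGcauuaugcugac
It lies on the plus strand at chr14:115043671-115043754 in GRCm38.p6. The miR-17 cluster spans chr14:115043671-115044506 and holds 6 miRNA genes, 2 of which, Mir17 and Mir20a, belong to the family. It overlaps the long non-coding host gene Mir17hg. The miR-106a cluster spans chrX:52741693-52742567 on the minus strand, holds 6 miRNA genes with Mir106a and Mir20b in the family, and overlaps the non-coding gene Kis2. The miR-106b cluster spans chr5:138165321-138165818 on the minus strand and holds 3 miRNA genes, with Mir106b and Mir93 in the family. It lies inside Mcm7, the gene of a subunit of the replication helicase. The seed AAAGUGC was found in 7 of the 1679 mature miRNAs of the reference. The seventh is miR-6383, encoded elsewhere on chromosome X, whose single probe was not detected on any array.

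Brightness is given in linear units above the background, which is the trimmed mean of the 1664 blank spots of an array and lay between 95.9 and 101 units. Detection means that a spot also has an entry in the table of processed values. The dimmest such spot stood at 9.77 units on W4-08-PR, 10.8 on C2C12-DF and 11.9 on C2C12-PR. There were 477, 370 and 339 detected probes in that order, and between 6.01% and 7.15% of blank spots passed the same limit. Log2 ratios were taken after normexp background correction and quantile normalization, which sets the arrays to a common distribution. Every ± is 1 technical SD, propagated from how much the blank spots and the 16 spike controls varied within an array. It covers the error of a spot and not the difference between cultures. Myoblast identity was checked with 5 muscle probes, of which 4, 3 and 3 were detected on W4-08-PR, C2C12-DF and C2C12-PR, with summed brightness of 3650, 395 and 119 units. Muscle miR-499-5p was not detected on any array. Of 14 probes for blood, neural, epithelial, liver, endothelial and pluripotent cells, 4, 1 and 2 were detected, with summed brightness of 67.9, 48.3 and 56.2 units. Pluripotent miR-290-5p was detected on all 3 arrays, at 30.8, 48.3 and 37.3 units. In C2C12-PR, muscle miR-206-3p measured 54.4 units, miR-133b-3p 37.3 and miR-133a-3p 27.2. The part of these differences in the values of the family was not tested.

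All 6 guide strands were detected on all 3 arrays, and all 6 were dimmest in C2C12-DF. The brightest array was W4-08-PR for 5 of them and C2C12-PR for miR-20b-5p. miR-17-5p, after which the family is named, measured 433.9 ± 30.0 units in W4-08-PR, 142.8 ± 15.7 in C2C12-DF and 347.5 ± 29.0 in C2C12-PR. miR-20a-5p, from the same cluster, measured 236.6 ± 17.2 units in W4-08-PR, 64.6 ± 9.4 in C2C12-DF and 225.5 ± 19.7 in C2C12-PR. In both, the C2C12-DF value stood apart below those of the 2 proliferation cultures. W4-08-PR exceeded C2C12-PR by 86.3 ± 41.7 units for miR-17-5p and by 11.1 ± 26.1 for miR-20a-5p.

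The guide strands of the X-linked cluster had the same order of arrays, apart from the top place of miR-20b-5p. miR-106a-5p measured 296.6 ± 21.0 units in W4-08-PR, 111.3 ± 13.0 in C2C12-DF and 239.2 ± 20.7 in C2C12-PR. miR-20b-5p measured 180.6 ± 13.8 units in W4-08-PR, 54.8 ± 8.7 in C2C12-DF and 188.6 ± 17 in C2C12-PR. Its values in the 2 proliferation cultures differed by less than 1 technical SD.

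The guide strands that come from Mcm7 were less far apart between the 2 media. miR-93-5p measured 273.4 ± 19.6 units in W4-08-PR, 140.99 ± 15.5 in C2C12-DF and 218.7 ± 19.2 in C2C12-PR. miR-106b-5p measured 110.9 ± 9.9 units in W4-08-PR, 39.5 ± 7.9 in C2C12-DF and 61.9 ± 9.1 in C2C12-PR. It was the only member whose W4-08-PR units lay more than 3 technical SD above those in C2C12-PR, at 3.65. The W4-08-PR array was brighter as a whole, with a median log2 unit ratio of 0.34 over the 302 probes detected on both arrays. After normalization the log2 ratio of miR-106b-5p was 0.28 ± 0.15, or 1.89 technical SD.

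**Figure D1:**
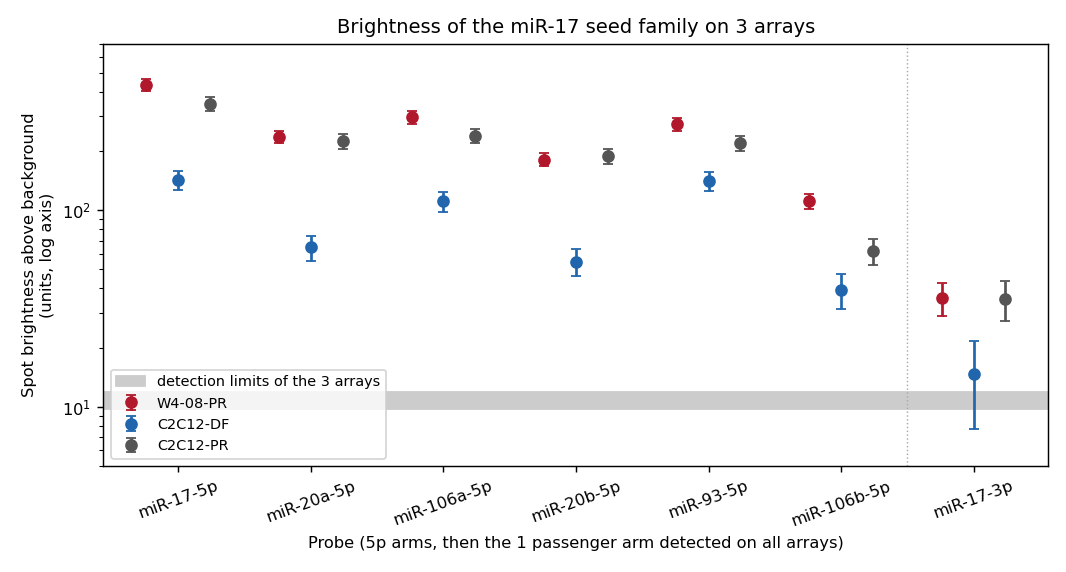
Spot brightness above background (units, log axis) of the 6 guide strands and miR-17-3p on the W4-08-PR, C2C12-DF and C2C12-PR arrays, 1 array each, with bars of 1 technical SD and the range of the 3 detection limits in grey. The C2C12-DF point is the lowest for each of the 7 probes, between 14.7 units for miR-17-3p and 142.8 units for miR-17-5p.

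The passenger strands gave little signal. Only miR-17-3p was detected on all 3 arrays, with 35.7 ± 6.9 units in W4-08-PR, 14.7 ± 7.0 in C2C12-DF and 35.4 ± 8.1 in C2C12-PR. It had the order of its guide strand against C2C12-DF, but its C2C12-DF value was close to the limit of 10.8 units. miR-106a-3p and miR-93-3p were detected only in C2C12-DF, at 11.9 and 13.4 units, just above that limit. miR-20a-3p, miR-20b-3p and miR-106b-3p were not detected on any array. Of the 6 passenger strands, 1, 3 and 1 were thus detected on W4-08-PR, C2C12-DF and C2C12-PR, against 6 of 6 guide strands on each.

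Between C2C12-DF and C2C12-PR, cultures of one line in 2 media, 3 members of the family were lower by at least 2-fold in C2C12-DF and none was higher. The log2 ratio was -1.30 ± 0.14 for miR-20a-5p, -1.17 ± 0.15 for miR-20b-5p and -1.07 ± 0.23 for miR-17-5p. A call needed a log2 ratio of 1 or more in size and detection on whichever array was brighter, and 9 members were detected on at least 1 of the 2 arrays. Over all 424 probes detected on either array, 3.77% were called lower and 0.708% higher. The values correspond to 0.41 ± 0.04 of the C2C12-PR level for miR-20a-5p, 0.44 ± 0.05 for miR-20b-5p and 0.48 ± 0.08 for miR-17-5p. The ratio of miR-17-5p lies within 1 technical SD of the 2-fold limit.

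The other guide strands did not reach that limit. The log2 ratio was -0.94 ± 0.15 for miR-106a-5p, which is also within 1 technical SD of it. It was -0.59 ± 0.17 for miR-93-5p, that is 0.67 ± 0.08 of the C2C12-PR level, and -0.30 ± 0.18 for miR-106b-5p, 0.81 ± 0.10 of it. All 6 ratios were below 0, with a median of -1.01, beside a median of 0.04 over the 285 probes detected on both arrays. Ranked from the lowest ratio among these 285, the members stood at 5 (miR-20a-5p), 10 (miR-20b-5p), 13 (miR-17-5p), 17 (miR-106a-5p), 22 (miR-93-5p) and 42 (miR-106b-5p). The passenger strand miR-17-3p stood at 33, with a log2 ratio of -0.38 ± 0.16.

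The offset added by the background model pulls ratios toward 0, most of all for dim probes, and ratios of the units themselves were larger in size. C2C12-DF over C2C12-PR came to 0.286 ± 0.048 for miR-20a-5p, 0.290 ± 0.053 for miR-20b-5p, 0.411 ± 0.057 for miR-17-5p and 0.465 ± 0.067 for miR-106a-5p. It was 0.645 ± 0.091 for miR-93-5p and 0.637 ± 0.158 for miR-106b-5p. The gap between these last members that the normalized ratios show is therefore not seen in the units. For miR-17-3p the unit ratio of 0.415 ± 0.219 lay close to the 0.411 of its guide strand, with a wide error.

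**Figure D2:**
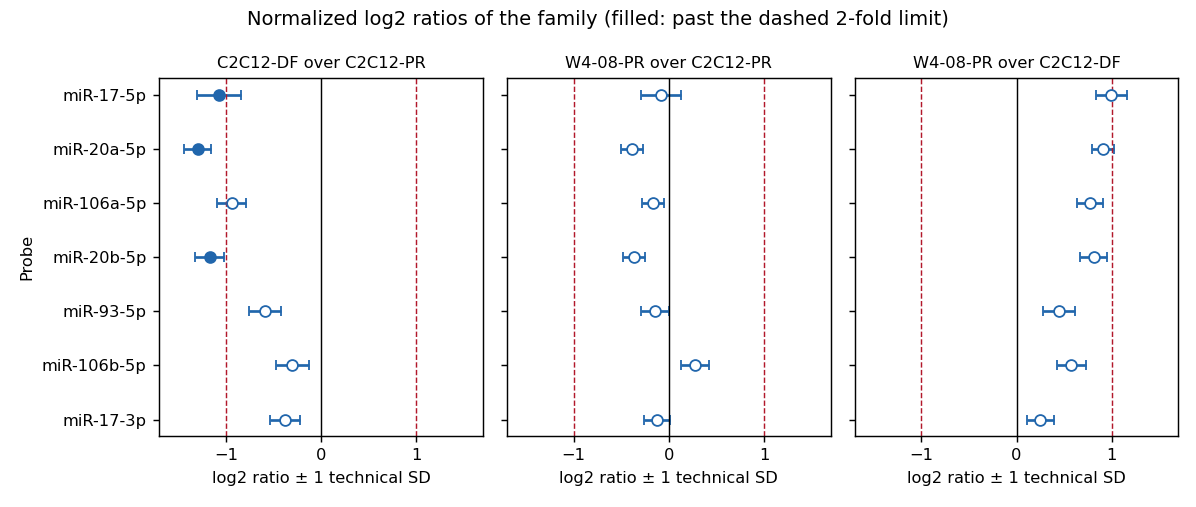
Normalized log2 ratios (x axis) of the 6 guide strands and miR-17-3p in the 3 comparisons, with bars of 1 technical SD, dashed lines at the 2-fold limits and filled points for called probes. Only 3 points are past the limit, those of miR-20b-5p, miR-17-5p and miR-20a-5p in C2C12-DF over C2C12-PR, and all 6 guide strands lie above 0 in W4-08-PR over C2C12-DF.

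Members were also compared with one another by their change between the 2 media. The largest gap was between miR-20a-5p and miR-106b-5p, whose log2 ratios differed by -0.995 ± 0.226, over 4 technical SD. miR-20a-5p and miR-93-5p differed by -0.71 ± 0.22. In the order of their ratios, from miR-20a-5p to miR-106b-5p, neighbours lay within 2 technical SD of each other. The widest of these steps was the -0.35 ± 0.23 between miR-106a-5p and miR-93-5p, where the order passes to the cluster in Mcm7.

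Grouped by cluster, the mean log2 ratio of the 2 guide strands in C2C12-DF over C2C12-PR was -1.18 ± 0.13 for the miR-17 cluster, -1.05 ± 0.11 for the miR-106a cluster and -0.44 ± 0.12 for the miR-106b cluster. The miR-106b cluster exceeded the miR-17 cluster by 0.74 ± 0.18 and the miR-106a cluster by 0.61 ± 0.16, which are 4.08 and 3.77 technical SD. Errors of cluster means, here and below, treat the 2 probes as independent and cover spots only, so they are likely too small. The miR-106a cluster minus the miR-17 cluster gave 0.13 ± 0.17, less than the error of a spot. Under all 9 ways of processing that were tried, the miR-106b cluster kept the ratio nearest to 0. Likeness of sequence follows the clusters only in part. The 4 members from the other clusters differ among themselves at 1 to 3 bases. miR-106b-5p differs from each of these at 3 bases, apart from miR-20b-5p at 4, and miR-93-5p differs from them at 3 or 4. The 2 members of the miR-106b cluster differ from each other at 5 bases, the most of any pair. The part of sequence likeness in the differences between clusters was not tested.

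The other arms of the clusters give a reading that does not rest on the shared seed. Of 16 such probes, 10 were detected on at least 1 array and 7 on all 3. Only miR-19b-3p was called in C2C12-DF over C2C12-PR, with a log2 ratio of -1.32 ± 0.17. It measured 161.7 ± 12.7 units in W4-08-PR, 28.8 ± 7.4 in C2C12-DF and 149.5 ± 14.2 in C2C12-PR, so C2C12-DF had 0.193 ± 0.053 of the C2C12-PR units. miR-19b-3p, a member of the miR-19 seed family, is made from both the miR-17 and the miR-106a cluster. Its ratio ranked at 4 of 285, next to miR-20a-5p.

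The remaining cluster mates did not share this size. The median log2 ratio of the 7 detected in both C2C12-DF and C2C12-PR was -0.27. The offset pulls these ratios toward 0 as well. C2C12-DF over C2C12-PR in units was 0.544 ± 0.275 for miR-18a-5p, 0.659 ± 0.241 for miR-92a-2-5p and 0.676 ± 0.137 for miR-92a-3p. It was above 1 for miR-363-5p (1.31 ± 0.52), miR-25-3p (1.32 ± 0.21) and miR-18a-3p (1.44 ± 0.99). miR-92a-3p, which is made from the same 2 clusters as miR-19b-3p, measured 77.8 units in W4-08-PR, 53.9 in C2C12-DF and 79.8 in C2C12-PR, a log2 ratio of -0.34 ± 0.16 between the media. miR-18a-5p, from the hairpin between those of miR-17 and miR-20a, measured 19.5, 16.3 and 30.0 units on the same arrays, with -0.27 ± 0.18, and its partner miR-18a-3p gave 0.09 ± 0.19. The arms encoded in the miR-17 cluster and detected on both arrays ranged from -1.32 to 0.09. The low end is miR-19b-3p, which the miR-106a cluster also encodes. The high end is miR-18a-3p, a dim probe with 19.0 units in C2C12-DF and 13.2 in C2C12-PR. The cause of this range was not tested.

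In the X-linked cluster, miR-92a-2-5p measured 43.6 units in W4-08-PR, 24.7 in C2C12-DF and 37.5 in C2C12-PR, with a log2 ratio of -0.28 ± 0.16. miR-363-5p measured 24.4, 31.9 and 24.4 units on the same arrays, with 0.05 ± 0.19. These 2 arms and miR-18b-5p were the detected arms of that cluster alone outside the family, and none was called. miR-18b-5p measured 10.9 units in W4-08-PR, was not well above background in C2C12-DF and measured 18.8 units in C2C12-PR, so it was at least 1.12-fold lower in the differentiation medium.

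miR-19a-3p, from the miR-17 cluster, measured 22.1 units in W4-08-PR, was not well above background in C2C12-DF and measured 14.4 ± 7.7 units in C2C12-PR. The bound on its fall in the differentiation medium was 1.06-fold, again without the error of the spots. The unit difference of -15.9 ± 10.3 was -1.54 technical SD. For these bounds, the C2C12-DF array stands at the lowest signal that it detects.

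The third hairpin inside Mcm7 carries miR-25-3p, of the miR-92 seed family. It measured 200.1 ± 15.0 units in W4-08-PR, 134.7 ± 15.0 in C2C12-DF and 102.2 ± 11.2 in C2C12-PR. Its log2 ratio between the media was 0.12 ± 0.20, within 1 technical SD of 0. Those of its neighbours were -0.59 ± 0.17 for miR-93-5p and -0.30 ± 0.18 for miR-106b-5p. miR-25-5p was detected in C2C12-DF alone. The mates not detected on any array were miR-18b-3p, miR-19a-5p, miR-19b-1-5p, miR-19b-2-5p, miR-92a-1-5p and miR-363-3p.

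**Figure D3:**
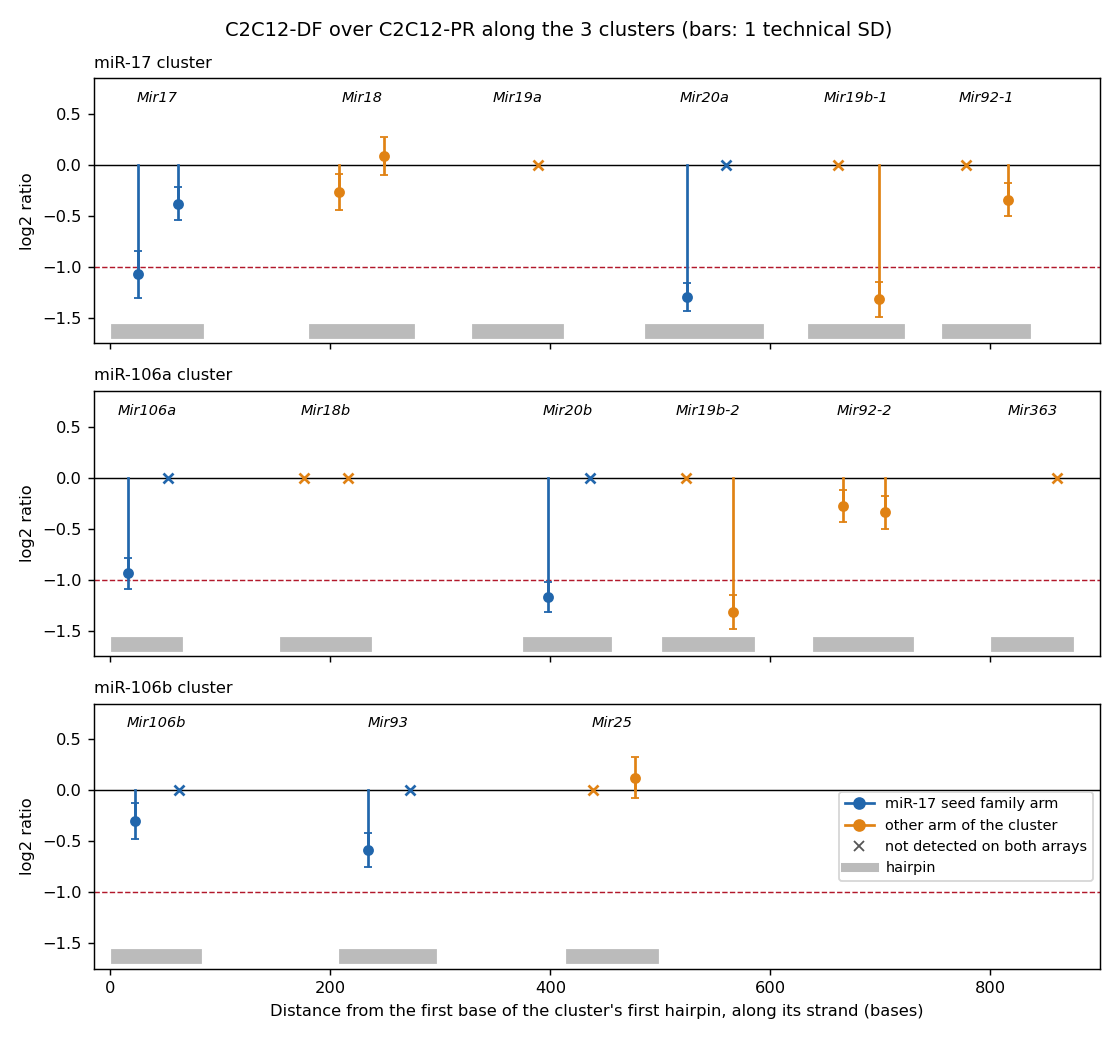
Log2 ratio of C2C12-DF over C2C12-PR for each arm with a mature sequence in RefSeq, placed at its distance in bases from the first base of the first hairpin of its cluster, with bars of 1 technical SD, grey boxes for the hairpins, and crosses, which carry no value, for arms not detected on both arrays. miR-19b-3p and miR-92a-3p are drawn in both clusters that encode them, and no arm of the miR-106b cluster passes the dashed 2-fold limit.

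Between W4-08-PR and C2C12-PR, which shared the proliferation medium, no member was called in either direction, of 7 detected. Over all 514 probes detected on either array, 1.75% were called lower and 0.584% higher. Log2 ratios were -0.39 ± 0.11 for miR-20a-5p, -0.36 ± 0.12 for miR-20b-5p, -0.17 ± 0.11 for miR-106a-5p, -0.14 ± 0.14 for miR-93-5p and -0.08 ± 0.21 for miR-17-5p. miR-106b-5p alone was above 0, at 0.28 ± 0.15. The median of the 6 was -0.16, beside -0.03 over the 302 probes detected on both arrays.

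Apart from miR-106b-5p, which was above 0 under all 9 ways of processing (0.07 to 1.54), the sign of these small ratios depended on the processing. The unit ratio of W4-08-PR over C2C12-PR was 1.79 ± 0.31 for miR-106b-5p and 1.25 ± 0.14 for both miR-17-5p and miR-93-5p. It was 1.24 ± 0.14 for miR-106a-5p, 1.05 ± 0.12 for miR-20a-5p and 0.957 ± 0.113 for miR-20b-5p. With background subtracted and the spike controls as the scale, the median of the family was 0.24 and that of all 302 probes was 0.26. In the processed values of the authors, each array was scaled to its own detected probes, of which W4-08-PR had the most, and these medians were 1.02 and 1.04. Relative to all probes, the family thus lay between -0.14 and 0.12 under the 9 ways of processing.

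Within the family, the miR-106b cluster again had the highest mean ratio in this comparison. Its mean was 0.07 ± 0.10, against -0.26 ± 0.08 for the miR-106a cluster and -0.23 ± 0.12 for the miR-17 cluster. That mean joins 0.28 ± 0.15 for miR-106b-5p and -0.14 ± 0.14 for miR-93-5p, which lay below the -0.08 ± 0.21 of miR-17-5p. The difference from the miR-106a cluster was 0.33 ± 0.13, or 2.53 technical SD, and that from the miR-17 cluster was 0.30 ± 0.16, or 1.90. miR-106b-5p and miR-20a-5p were the farthest apart, at a difference of 0.66 ± 0.18 in size. miR-25-3p, the third miRNA of that cluster, had a ratio of 0.28 ± 0.15, the same as miR-106b-5p. No cluster mate was called of the 9 detected, and their median was -0.12.

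W4-08-PR cells form myotubes in the proliferation medium, and C2C12-DF is the parental line in the medium that lets it do so. How far C2C12-DF had formed myotubes at extraction is not given in the sources used here. The summed brightness of the muscle probes was 3650 units in W4-08-PR and 395 in C2C12-DF. All 6 guide strands were brighter in W4-08-PR, with log2 ratios of 0.99 ± 0.16 for miR-17-5p, 0.91 ± 0.12 for miR-20a-5p, 0.81 ± 0.14 for miR-20b-5p, 0.77 ± 0.14 for miR-106a-5p, 0.58 ± 0.15 for miR-106b-5p and 0.44 ± 0.17 for miR-93-5p. None was called, and 1.15% of all 524 probes were called in each direction. miR-17-5p stopped just short of the limit. Under 8 of the 12 alternatives between 1 and 7 members were called higher in W4-08-PR. The share of all probes called higher under these 8 ran from 1.53% to 32.2%. With plain subtraction scaled to the spike controls, 6 members and 10.1% of all probes were called higher. The median of the family was 0.79, beside -0.03 over the 323 probes detected on both arrays. Counted from the lowest of the 323, miR-17-5p stood at 317, miR-20a-5p at 316, miR-20b-5p at 314, miR-106a-5p at 312 and miR-106b-5p at 305, with miR-93-5p below these.

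The units gave larger ratios for the same comparison. W4-08-PR over C2C12-DF was 3.66 ± 0.59 for miR-20a-5p, 3.30 ± 0.58 for miR-20b-5p, 3.04 ± 0.39 for miR-17-5p, 2.81 ± 0.61 for miR-106b-5p, 2.67 ± 0.36 for miR-106a-5p and 1.94 ± 0.25 for miR-93-5p. Among the cluster mates, miR-19b-3p was called higher in W4-08-PR, at 1.07 ± 0.14, and the median of the 7 detected on both arrays was 0.11. All 6 ratios stayed above 0 and above the median of all probes under each of the 9 ways.

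The ratios of W4-08-PR and of C2C12-DF to C2C12-PR share the C2C12-PR array, so an error of that array enters both, and their likeness is not read as a result. Set side by side, miR-17-5p had -0.08 and -1.07, miR-20a-5p -0.39 and -1.30, miR-20b-5p -0.36 and -1.17, and miR-106a-5p -0.17 and -0.94. miR-93-5p had -0.14 and -0.59, and miR-106b-5p 0.28 and -0.30.

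The probes most like the family were sought among the 263 others that were detected on all 3 arrays, by distance from the mean of the 6 guide strands in both ratios to C2C12-PR, over 3 arrays. That mean was -0.89 for C2C12-DF and -0.14 for W4-08-PR. The nearest was miR-21a-5p, an abundant miRNA of many tissues and tumours, at a distance of 0.066. It measured 794 units in W4-08-PR, 374 in C2C12-DF and 826 in C2C12-PR, and its log2 ratios were -0.18 for W4-08-PR and -0.95 for C2C12-DF. miR-29b-3p, of a family known for lowering collagen mRNAs, followed at 0.171, with 81.9, 29.3 and 83.5 units on the same arrays.

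The next in order were miR-3968, at a distance of 0.200, let-7i-5p at 0.372 and miR-3058-3p at 0.486. The place of miR-3968 rests on quantile normalization, which gave it a ratio of 0.00 for W4-08-PR although its units were 8645 there and 18879 in C2C12-PR. let-7i-5p, one of the let-7 miRNAs known for rising as cells mature, measured 268 units in W4-08-PR, 140.7 in C2C12-DF and 205 in C2C12-PR. miR-3058-3p measured 34.3, 25.8 and 64.7 units on the same arrays, with log2 ratios to C2C12-PR of -0.52 for W4-08-PR and -0.59 for C2C12-DF. Its ratio of W4-08-PR over C2C12-DF was 0.07, against 0.75 for the mean of the guide strands. None of these 5 probes carries the seed of the family.

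**Figure D4:**
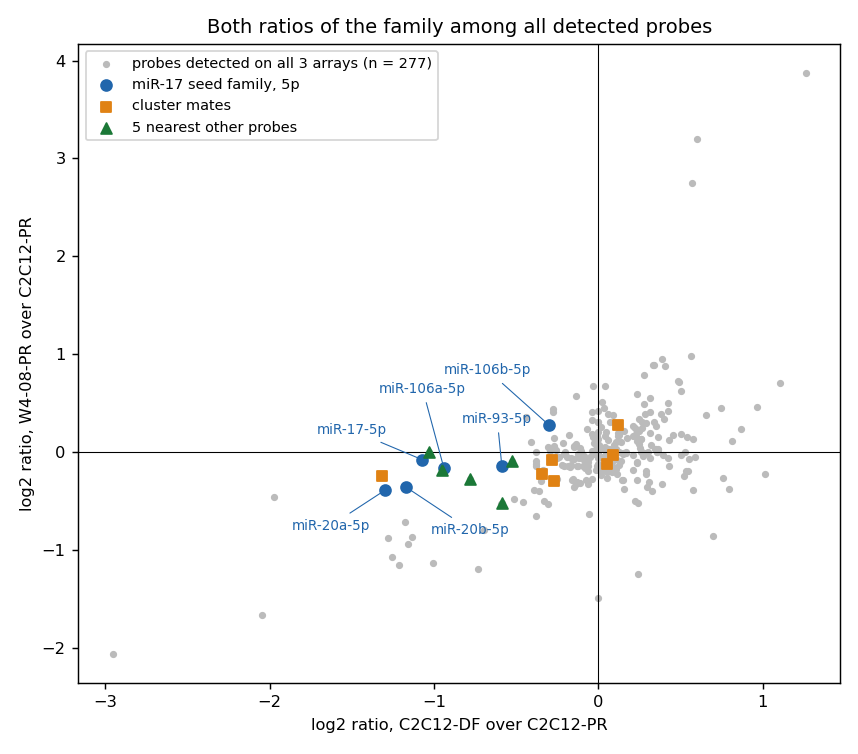
Log2 ratio of W4-08-PR over C2C12-PR (y axis) against that of C2C12-DF over C2C12-PR (x axis) for the 277 probes detected on all 3 arrays, 1 point per probe, with the family, its cluster mates and the 5 nearest other probes marked. Both axes share the C2C12-PR array. The family runs along the left from -1.30 to -0.30 on the x axis while staying between -0.39 and 0.28 on the y axis.

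The calls in C2C12-DF over C2C12-PR were followed through the 9 ways of processing. miR-20a-5p ranged from -1.93 to -1.14 and miR-20b-5p from -1.87 to -1.06, and both were past the 2-fold limit in 9 of 9. miR-17-5p ranged from -1.37 to -0.97 and was past it in 7 of 9, and miR-106a-5p ranged from -1.29 to -0.77 and was past it in 4. The passenger strand miR-17-3p ranged from -1.34 to -0.31 and was also past it in 4 of 9, the widest range of the 7 members. miR-93-5p and miR-106b-5p reached it in none, with ranges of -0.79 to -0.43 and -0.67 to -0.26. The order of the first 4 guide strands did not change with the processing, whereas that of the last pair did, as the plot of the 9 ways shows.

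**Figure D5:**
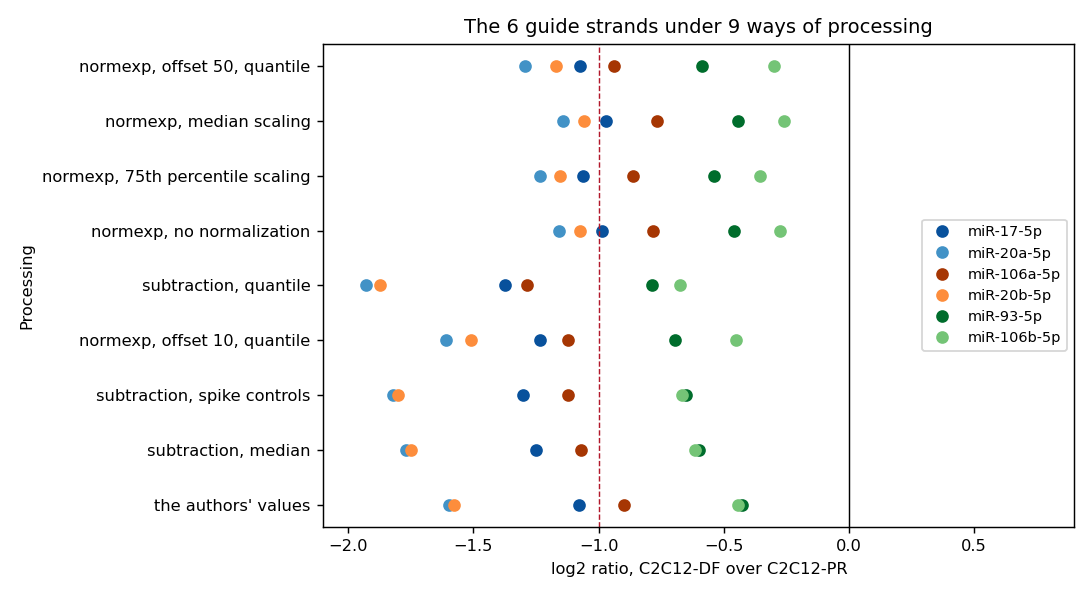
Log2 ratio of C2C12-DF over C2C12-PR (x axis) for the 6 guide strands under 9 ways of background correction and scaling (rows), with the 2-fold limit dashed. miR-20a-5p and miR-20b-5p lie past the limit in every row, miR-93-5p and miR-106b-5p in none.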

How the data were processed

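Total RNA of W4-08-PR, C2C12-DF and C2C12-PR cells was labelled with Cy5, and each sample was run on 1 mouse miRNA array of the 3D-Gene type (Toray). RNA was extracted with Isogen according to the paper and with a miRNeasy kit according to the sample descriptions. The authors deposited linear spot intensity values from which no background had been subtracted, together with processed intensity values in which the median of the detected probes of an array is 25. Scanner settings are not given in the sources used here. limma 3.58.1 in R 4.3.3 was used for background correction (normexp, offset 50, against the blank spots trimmed by 5% at each end) and for quantile normalization across the 1265 miRNA probes, and values were taken as log2. Ratios, errors and plots were made in Python 3.11.15 (pandas 2.3.3, numpy 2.4.6, matplotlib 3.10.9). The script was tested on simulated data. Named were all probes of the family, cluster mates detected on any array, other probes with the seed, the 5 nearest profiles, and muscle and other cell type markers. Members and lists were chosen with earlier results of these data known. With 1 array per condition, the number of arrays sets the precision. The 12 alternatives were 8 of background correction or scaling and 4 of the detection or size limit.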

Additional observations from a re-analysis of the deposited data

How the results depend on the processing

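Several medians moved by more than their technical error, that of W4-08-PR over C2C12-PR with a change of sign, and several counts by over 1.5 times. In C2C12-DF over C2C12-PR, 5 members instead of 3 were lower with plain subtraction and quantile normalization, with the spike controls as the scale and with plain subtraction scaled to the median, and 0 at a log2 size limit of 2. The added members were miR-106a-5p and miR-17-3p. The share of all probes called lower was 8.25%, 7.78%, 7.55% and 0.472% in that order. The median of the guide strands, -1.01, came to -1.33 with plain subtraction, -1.18 with an offset of 10 and -1.21 with the spike controls. In W4-08-PR over C2C12-PR, the median of -0.16 came to 0.040 with median scaling, 0.25 with no between-array normalization, 0.24 with the spike controls and 1.02 in the processed values of the authors, where 4 members and 53.3% of all probes were higher, instead of 0 members. In W4-08-PR over C2C12-DF, 0 members were higher, against 1 with median scaling, 4 with no normalization, 5 with plain subtraction, 3 with an offset of 10, 6 with the spike controls, 4 with plain subtraction scaled to the median, 7 in the processed values and 2 at a size limit of 0.9. The share of all probes called higher was 1.53%, 2.48%, 5.53%, 2.67%, 10.1%, 4.01%, 32.2% and 1.53% in that order. The median there, 0.79, came to 1.03 with no normalization, 1.23 with plain subtraction, 1.00 with an offset of 10, 1.49 with the spike controls, 1.11 with plain subtraction scaled to the median and 2.05 in the processed values. The cause of these shifts was not tested. For single probes, 94 values moved by more than 1 technical SD and 74 did not. No paired analysis was possible because each condition has 1 array. Dim probes are limited by their signal over background: miR-106b-5p stood 5.78 blank SD above background in C2C12-DF and miR-17-3p 2.15.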
